A study of Mus musculus with 8 samples.

Results

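The single-positive stromal cells of neonatal bone marrow were compared here, namely cells that carried *Nes*-GFP without surface Pdgfrα and cells that carried Pdgfrα without GFP. Of the 8 libraries in the series, 4 belong to these populations, 2 to GFP+ Pdgfrα- cells (GFP-only) and 2 to GFP- Pdgfrα+ cells (Pdgfrα-only), and they were taken by the sort gate that names each library. The study asked which stromal cells of the developing marrow act as mesenchymal stem cells and which serve the niche of blood stem cells. RNA-seq was made from all 4 gates that GFP and Pdgfrα define, and the double-positive and double-negative libraries enter here to share the estimate of spread and for reference.

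All libraries came from C57BL/6 mice heterozygous for *Nes-Gfp*, killed on postnatal day 1, and none of the animals was treated. In this transgene regulatory elements of the rat nestin gene drive GFP, so GFP reports the activity of these elements and not the *Nes* transcript itself. Cells with the leukocyte antigen CD45, the red cell antigen Ter119 or CD31 of endothelium were gated out. Each library held the pooled bones of 3 pups, and 15000 to 80000 cells were sorted per sample. The sample labels list long bones and scapulae, whereas the design text names long bones and sterna. Libraries with the same replicate number came from the same pool of littermates.

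Nestin is an intermediate filament protein of dividing precursors in nerve, muscle and vessel wall, and its regulatory elements are active in several of these lineages. Pdgfrα is a receptor for platelet-derived growth factors and marks mesenchymal cells of connective tissue, among them the precursors of fibroblasts, tendon, cartilage and bone. Long bones at birth are wrapped in tendon, muscle, vessel and nerve, and the study freed the bones of such tissue before crushing and digesting them.

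The table holds a normalized value for each of 15880 genes, and the values fit whole reads with 0.5 added, scaled to 1e6 of an adjusted library size. Reads were inferred from the values in this way and stand for rounded RSEM estimates, so that 0 or 1 read means an estimate that rounds to it. Reads on genes were 3644103 and 3427644 in the GFP-only libraries and 3869275 and 3221217 in the Pdgfrα-only libraries. In these 4 libraries 1 read was worth a value between 0.364 and 0.446 and 3 reads between 0.85 and 1.04. These floors reflect counting error alone, as PCR copies of one molecule may be counted separately. Differences are GFP-only minus Pdgfrα-only after taking log2(value + 1), a step that shrinks the differences of weakly read genes. They were tested in one limma fit over all 8 libraries with Benjamini–Hochberg adjustment over the whole table. Genes with an adjusted p-value of 0.05 or less are termed called. An exact permutation test of 2 libraries against 2 cannot go below p = 0.333, so the p-values below draw on variance pooled across genes by limma. Values are given for replicates 1 and 2 in that order, GFP-only libraries first, and coordinates are those of NCBIM37.

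The sort was checked first. *Pdgfra* (ENSMUSG00000029231, chromosome 5, 75548316 to 75594229, plus strand) had values of 18.1 and 10.4 in the GFP-only libraries and of 839 and 794 in the Pdgfrα-only libraries. Its values did not overlap, and its log2 difference was -5.79 (standard error 0.22, limma, adjusted p = 8.05e-09). *Nes* (ENSMUSG00000004891, chromosome 3, 87775000 to 87784373, plus strand) had values of 149 and 176 in GFP-only cells and of 27.4 and 47.1 in Pdgfrα-only cells, with a log2 difference of 2.14 (standard error 0.34, limma, adjusted p = 5.60e-04). Both genes moved the way the gates are named, and *Nes* transcript was still read in the cells without GFP. As the gates were set on surface Pdgfrα and on GFP driven by nestin elements, both genes serve as a check of the sort and not as a finding.

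In all, 4427 genes were called, which is 27.9% of those tested. They were split almost evenly, with 2150 (13.5%) higher in GFP-only cells and 2277 (14.3%) higher in Pdgfrα-only cells. A difference of at least 1 on the log2 scale was reached by 3113 called genes (19.6%), 1422 of them higher in GFP-only and 1691 in Pdgfrα-only cells, and a difference of at least 3 by 202 and 246 genes. Without GFP-only replicate 1 the total came to 2757, and without Pdgfrα-only replicate 2 to 2874. The count higher in GFP-only cells came to 1279 and 1420 without their replicates 1 and 2 and to 1343 without Pdgfrα-only replicate 2, and the count higher in Pdgfrα-only cells to 1478 and 1498 without replicate 1 of the former and of the latter. The 4 libraries did not overlap between the populations for 64.7% of all genes, called or not. All 4427 called genes were among them, so for a called gene lack of overlap adds no further support. Over all genes the median log2 difference was 0.03. Among the gene lists, those of muscle precursors, Schwann cell precursors and pericytes and smooth muscle had the highest medians, and those of tendon, complement and fibroblasts the lowest.

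**Figure D1:**
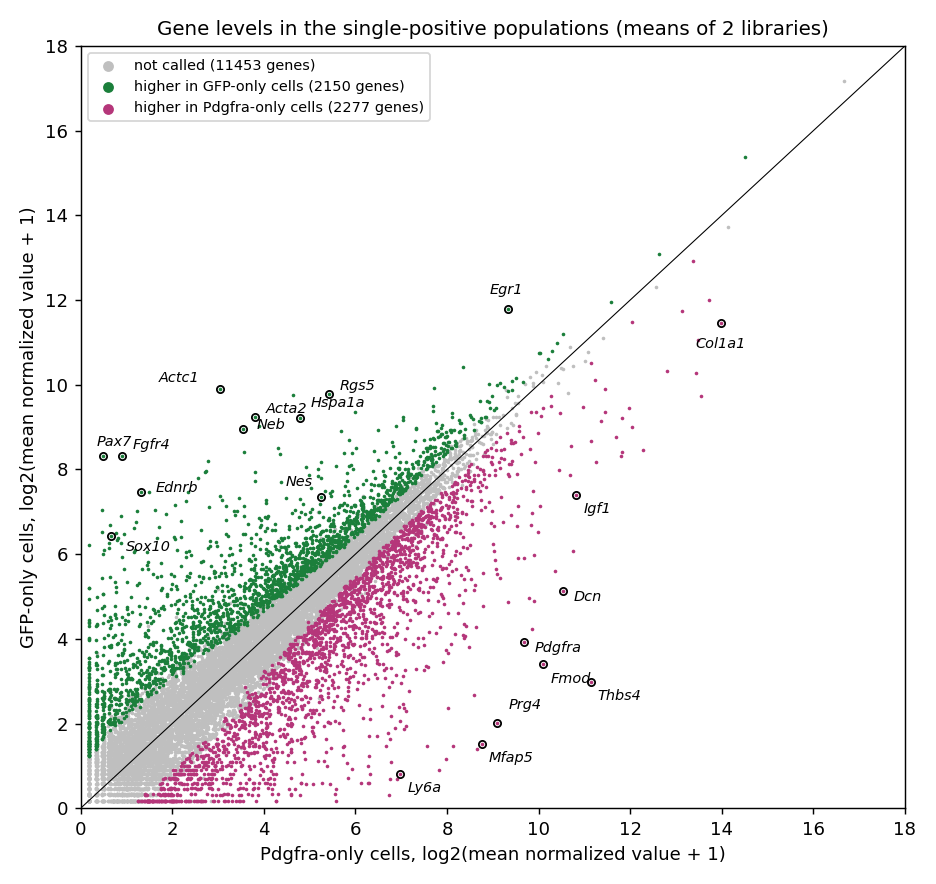
Mean level of each gene in Pdgfrα-only cells (horizontal) and GFP-only cells (vertical), both as log2(mean normalized value + 1) over 2 libraries. The 2150 genes called higher in GFP-only cells are green, the 2277 called higher in Pdgfrα-only cells purple and the others grey, the line marks equal levels, and *Pax7* and *Thbs4* lie near opposite edges.

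Skeletal muscle precursors gave the clearest set of genes higher in GFP-only cells. Each of the 11 measured genes of the muscle precursor list was called higher, and their median log2 difference was 5.63. *Pax7* (ENSMUSG00000028736, chromosome 4, 139292977 to 139389445, minus strand), the transcription factor that defines muscle satellite cells and their fetal forerunners, had values of 296 and 336 in GFP-only cells and of 0.378 and 0.446 in Pdgfrα-only cells. The latter correspond to 1 read in each library. Its log2 difference of 7.81 (standard error 0.31, limma, adjusted p = 1.12e-08) was the largest increase in the whole table.

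*Fgfr4*, a fibroblast growth factor receptor of myogenic precursors (ENSMUSG00000005320, chromosome 13, 55254001 to 55270120, plus strand), had values of 308 and 329 in GFP-only cells and of 0.378 and 1.34 in Pdgfrα-only cells. The bHLH factors that commit cells to muscle followed. *Myf5* stood at 131 and 131 against 0.630 and 0.149, and *Myod1* at 66.6 and 84.8 against 0.630 and 0.446. *Myog*, which acts as precursors begin to fuse, stood at 141 and 95.3 against 0.630 and 1.04. None of these libraries overlapped, and their log2 differences were 6.59, 5.63 and 6.00 (limma, adjusted p = 1.47e-07, 4.98e-07 and 4.47e-06).

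*Pax3*, the paralog of *Pax7* that marks migrating limb muscle precursors, had values of 15.9 and 14.3 in GFP-only cells and no read in either Pdgfrα-only library, so that it was at least 15.7-fold higher, taking 3 reads per library as the floor. *Megf10*, a receptor of satellite cells, had 536 and 496 against 17.0 and 10.5, and *Itga7*, the laminin-binding integrin chain of muscle, had 84.4 and 94.3 against 0.378 and 1.04. Surface and synaptic genes of the lineage moved along, with *Cdh15* (M-cadherin) at 64.9 and 74.7 against 0.630 and 0.446 and *Chrna1*, the acetylcholine receptor subunit of the neuromuscular junction, at 66.4 and 54.2 against 0.126 and 1.63. Summed over the list, values came to 1804 and 1813 in GFP-only and to 23.6 and 19.2 in Pdgfrα-only libraries. For reference, double-positive libraries summed to 103 and 97.0 and double-negative libraries to 21.1 and 11.2. Per kilobase of exon, *Fgfr4* was the most abundant member in GFP-only cells by the mean of both libraries, at 89.7. In replicate 1 alone *Myog* stood above it. In sorted pools such as these, fewer cells of a type and less RNA per cell cannot be told apart.

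Genes of the contractile apparatus were higher in GFP-only cells as well, although not throughout. Of 15 measured fibre genes, 11 were called higher and none lower, with a median log2 difference of 2.05. *Actc1*, an actin used in heart and in developing skeletal muscle (ENSMUSG00000068614, chromosome 2, 113873018 to 113879284, minus strand), had values of 1046 and 856 in GFP-only cells and of 6.68 and 7.87 in Pdgfrα-only cells, a 131-fold ratio of means. The sarcomeric giants were close behind. *Ttn* (titin) had 914 and 818 against 17.8 and 30.1, and *Neb* (nebulin) had 518 and 470 against 9.20 and 12.

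*Ryr1*, the calcium release channel of muscle, had values of 100 and 93.0 in GFP-only and of 1.13 and 1.34 in Pdgfrα-only cells, so that they did not overlap. The embryonic myosin *Myh3* had 38.0 and 32.8 against 2.65 and 4.01, and the perinatal myosin *Myh8* 67.4 and 49.3 against 15.5 and 10.2. The 4 members that were not called were *Ckm*, the creatine kinase of muscle, and 3 subunits of fast troponin. *Ckm* had 2.06 and 2.19 against 2.65 and 1.04, which overlapped. Values of the fibre list summed to 2826 and 2469 in GFP-only and to 86.9 and 96.4 in Pdgfrα-only libraries. Its most abundant member per kilobase was *Actc1* in GFP-only cells, at 587, and *Acta1* in Pdgfrα-only cells, at 8.14.

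Of the 12 largest increases, 4 were on none of the gene lists. *Tnnt2*, a troponin T of heart and early skeletal muscle, had values of 118 and 86.3 against 0.378 and 0.743, and *Rbm24*, an RNA-binding protein of muscle differentiation, had 94.8 and 86.1 against 0.630 and 0.149. *Fndc3c1* stood at 133 and 124 against 1.39 and 1.34. *Iqsec3* had 76.8 and 69.1 against no read in either Pdgfrα-only library, and was at least 75.9-fold higher with 3 reads per library as the floor.

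**Figure D2:**
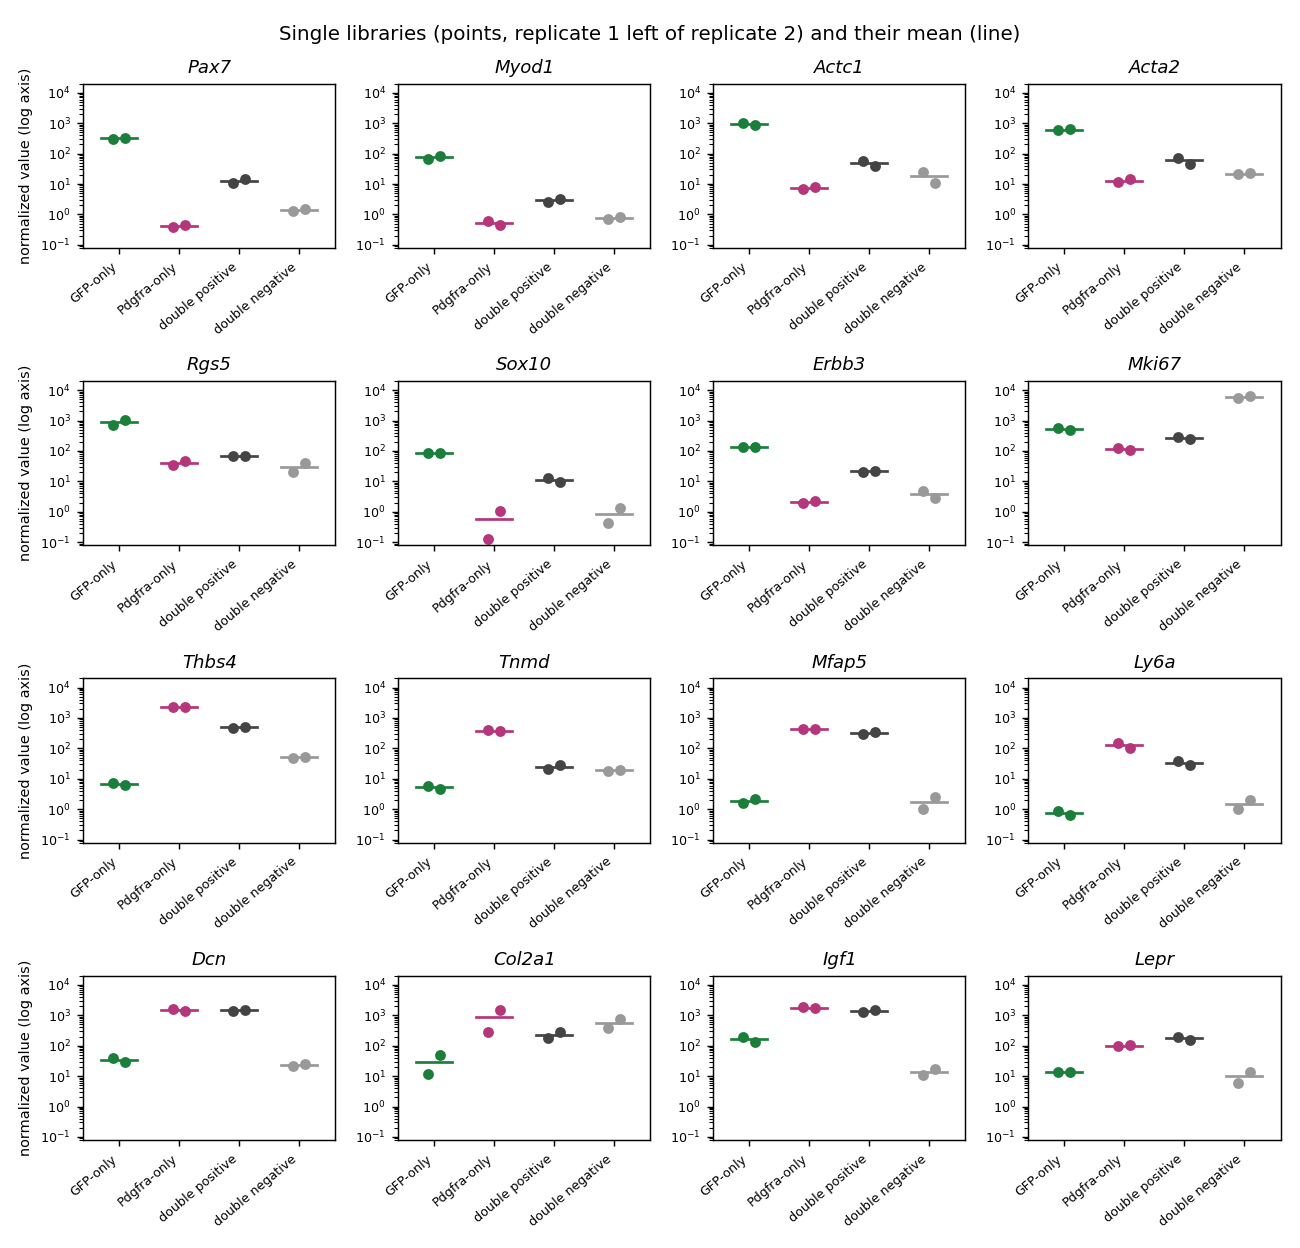
Normalized value (log axis) of 16 genes in each library of the 4 sorted populations, with the mean of 2 libraries as a line. *Pax7*, *Actc1*, *Acta2*, *Rgs5*, *Sox10* and *Erbb3* were highest in GFP-only cells and *Thbs4*, *Tnmd* and *Mfap5* in Pdgfrα-only cells, while *Mki67* was highest in double-negative cells.

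Vessel wall genes made up the second large group. Of 17 measured genes of pericytes and smooth muscle, 12 were called higher in GFP-only cells, 2 lower and 3 neither, and the median log2 difference was 2.77. *Rgs5*, a regulator of G protein signalling that marks pericytes (ENSMUSG00000026678, chromosome 1, 171585632 to 171625944, plus strand), had values of 731 and 1035 in GFP-only cells and of 35.2 and 48.3 in Pdgfrα-only cells. *Acta2*, smooth muscle actin (ENSMUSG00000035783, chromosome 19, 34315580 to 34329826, minus strand), had 584 and 623 against 11.5 and 14.4. Neither gene overlapped, and their log2 differences were 4.37 (standard error 0.26) and 5.45 (standard error 0.21; limma, adjusted p = 2.81e-07 and 1.12e-08).

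*Myh11*, the myosin heavy chain of mature smooth muscle, had values of 131 and 224 in GFP-only and of 1.39 and 2.23 in Pdgfrα-only cells. *Mcam* (CD146) had 191 and 231 against 14.5 and 11.7, and the subunits of the pericyte potassium channel went together, *Abcc9* at 202 and 253 against 36.7 and 34.0 and *Kcnj8* at 58.2 and 66.2 against 11.2 and 5.79. *Myocd*, the coactivator of smooth muscle genes, was lower in level, at 10.6 and 17.4 against 1.39 and 0.149. All of these were higher in both GFP-only libraries than in either Pdgfrα-only library.

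Not every pericyte gene followed. *Pdgfrb*, the receptor by which pericytes respond to endothelial PDGF-B, had values of 110 and 160 in GFP-only and of 126 and 124 in Pdgfrα-only cells, and the 2 populations overlapped (log2 difference 0.09, limma, adjusted p = 0.794). Without GFP-only replicate 2 this difference was -0.18. *Cspg4*, which encodes the NG2 proteoglycan, was lower in GFP-only cells, at 104 and 147 against 255 and 260 (log2 difference -1.05, standard error 0.34, limma, adjusted p = 0.0349). Leaving out any one of the 4 libraries ended this call, at log2 differences from -1.30 to -0.81, which left *Anpep* as the only lower member. *Anpep* (CD13) differed more in that direction, with 18.3 and 18.9 against 338 and 340. The summed value of the list was 2810 and 3670 in GFP-only and 1070 and 1093 in Pdgfrα-only libraries, and its most abundant member per kilobase was *Acta2* in the former, at 339, and *Anpep* in the latter, at 87.3.

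Muscle actins of the skeletal, cardiac and smooth type thus rose together with *Chrna1* in GFP-only cells, and their promoters are shown to let the reader see the 2 motifs for which such genes are known. The windows are those of RefSeq on GRCm38.p6, run from 250 bases before the start of the gene to 50 after it, and carry in capitals each E-box of the form CAGCTG and each exact match to the CArG box, the binding motif of serum response factor, which is CC and GG around 6 bases that are all A or T. Both motifs read alike on either strand. CArG-like stretches with a substitution, which the *Actc1*, *Acta1* and *Acta2* windows also hold, were neither marked nor counted. The windows are chr2:114052826-114053125 (*Actc1*), chr8:123894726-123895025 (*Acta1*), chr19:34255324-34255623 (*Acta2*) and chr2:73580289-73580588 (*Chrna1*), each on the minus strand and written 5′ to 3′.
Actc1: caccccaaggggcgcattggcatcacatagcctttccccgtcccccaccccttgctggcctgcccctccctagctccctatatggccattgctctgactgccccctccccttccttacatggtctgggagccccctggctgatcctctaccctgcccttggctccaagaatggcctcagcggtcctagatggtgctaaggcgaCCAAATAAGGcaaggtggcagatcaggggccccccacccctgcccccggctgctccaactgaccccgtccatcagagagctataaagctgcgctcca
Acta1: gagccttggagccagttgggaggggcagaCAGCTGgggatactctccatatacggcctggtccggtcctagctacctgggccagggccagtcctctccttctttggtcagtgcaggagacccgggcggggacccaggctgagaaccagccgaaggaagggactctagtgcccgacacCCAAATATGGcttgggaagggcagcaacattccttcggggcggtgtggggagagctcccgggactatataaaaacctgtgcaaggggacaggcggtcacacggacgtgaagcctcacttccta
Acta2: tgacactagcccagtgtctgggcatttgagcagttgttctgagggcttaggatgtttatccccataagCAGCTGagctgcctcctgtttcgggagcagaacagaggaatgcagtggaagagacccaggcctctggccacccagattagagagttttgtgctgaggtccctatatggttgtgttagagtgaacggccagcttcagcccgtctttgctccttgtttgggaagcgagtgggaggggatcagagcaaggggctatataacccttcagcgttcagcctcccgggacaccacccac
Chrna1: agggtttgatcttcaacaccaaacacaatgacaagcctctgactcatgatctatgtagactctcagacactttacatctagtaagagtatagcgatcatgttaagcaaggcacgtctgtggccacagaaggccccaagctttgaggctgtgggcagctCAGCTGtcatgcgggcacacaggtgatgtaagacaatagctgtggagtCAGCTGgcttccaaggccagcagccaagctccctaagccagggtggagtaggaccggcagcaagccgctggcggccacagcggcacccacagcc

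The CArG box began 47 bases before the start of *Actc1* and 73 before that of *Acta1*, and the 2 E-boxes of *Chrna1* began 92 and 44 bases before its start. Of 12 fibre genes matched by symbol, 5 had a CAGCTG E-box and 2 an exact CArG box. Among 6 matched muscle precursor genes the counts were 1, in *Chrna1*, and 0, a share for CAGCTG of 16.7%. Among 12 matched pericyte and smooth muscle genes the counts were 5 and 0, among 6 tendon genes 0 and 0, and among 12 fibroblast genes 4 and 0. Of all 27025 promoter windows, 1 for each symbol, 16.1% held CAGCTG and 1.57% a CArG box. A match is a description of these letters only.

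Glial genes were the third group. Of the 11 measured genes of Schwann cell precursors, 9 were called higher in GFP-only cells and 2 lower, with a median log2 difference of 3.66. *Sox10*, the transcription factor that neural crest cells keep as they become glia (ENSMUSG00000033006, chromosome 15, 78985343 to 78994920, minus strand), had values of 83.2 and 85.8 in GFP-only cells and of 0.126 and 1.04 in Pdgfrα-only cells, that is 0 and 3 reads. *Erbb3*, the neuregulin receptor on which Schwann cell precursors depend for survival, had 131 and 131 against 1.89 and 2.23. *Ednrb*, the endothelin receptor of crest-derived cells, had 174 and 176 against 1.39 and 1.63. In GFP-only cells the replicates of these 3 genes were close together, and their log2 differences were 5.82, 5.44 and 6.14 (limma, adjusted p = 9.39e-07, 9.65e-08 and 2.74e-06).

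Further along the lineage, *Dhh*, the Hedgehog ligand that Schwann cells send to the nerve sheath, had values of 28.0 and 24.1 in GFP-only and of 0.126 and 1.93 in Pdgfrα-only cells. *Fabp7* had 23.4 and 15.6 against 0.126 and 0.446, and *Cdh19* 14.7 and 14.5 against 0.378 and 0.149. The low-affinity neurotrophin receptor *Ngfr* went the other way, at 33.6 and 23.3 in GFP-only against 59.1 and 49.5 in Pdgfrα-only cells (log2 difference -0.93, standard error 0.23, limma, adjusted p = 0.0108). That call ended without GFP-only replicate 2 (log2 difference -0.67) or Pdgfrα-only replicate 1 (-0.80), and the latter also left no member of the list lower, while 1 was lower without either GFP-only library. Values of the list summed to 653 and 618 in GFP-only libraries, 86.9 and 80.3 in Pdgfrα-only, 237 and 200 in double-positive and 28.0 and 53.4 in double-negative libraries. Per kilobase *Ednrb* was its most abundant member in GFP-only cells, at 43.4, and *Ngfr* in Pdgfrα-only cells, at 15.8.

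Of 12 genes listed for myelinating Schwann cells, 6 were called higher in GFP-only cells and 2 lower, with a median log2 difference of 1.81. The other 4 were not called. The list includes *Gfap*, which the study names as a gene of mature Schwann cells. *Egr2* had values of 95.5 and 142 against 15.8 and 16.2, and of 89.6 and 53.3 in double-positive libraries. *Drp2*, a scaffold of the myelin sheath, had values of 150 and 168 against 8.19 and 11.7, *Mal* 21.7 and 21.7 against 0.378 and 1.34, and *Mbp* (myelin basic protein) 53.1 and 33.8 against 2.40 and 7.57. Double-negative libraries held still more *Mbp*, at 121 and 108. *Pmp22*, another myelin protein that fibroblasts also make, was lower in GFP-only cells at 447 and 385 against 712 and 626, and it was the most abundant member per kilobase in both populations. The astrocyte and glial filament gene *Gfap* was near the floor in both populations, at 0.364 and 0.129 against 1.39 and 1.34, and was not called (limma, adjusted p = 0.168). *Mag* had no read in Pdgfrα-only cells and 2.79 and 2.19 in GFP-only cells. The count of lower members came to 1 without either GFP-only library or without Pdgfrα-only replicate 2, and with *Mag* at its 3-read bound the median was 1.69. This list summed to 883 and 866 in GFP-only and to 779 and 709 in Pdgfrα-only libraries, and *Pmp22* made up most of it in the latter.

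Neuronal genes were scarce in both populations. Among 6 measured genes 4 were called lower and 1 higher in GFP-only cells, and their summed values were 7.77 and 3.34 against 16.1 and 20.5. *Stmn2*, a regulator of neuronal microtubules, had 0.121 and 0.386 against 5.67 and 5.79, and *Uchl1*, the most abundant member per kilobase in both, had 1.34 and 0.643 against 5.42 and 6.39. Conversely *Syt1*, a calcium sensor of synaptic vesicles, had 4.73 and 1.93 against 0.378 and 0.446. The call on *Uchl1* ended without GFP-only replicate 2 (log2 difference -1.56) or Pdgfrα-only replicate 2 (-1.71), the latter leaving 2 lower members, and DESeq2 called 1 lower and edgeR 3. That on *Syt1* ended without GFP-only replicate 1 (1.05) or without either Pdgfrα-only library (1.5 and 1.57), and neither edgeR nor DESeq2 called a higher member.

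The Notch pathway, through which neighbouring cells of muscle, vessel wall and glia signal to each other, was mostly higher in GFP-only cells. Of 13 measured genes 9 were called higher and none lower, and the median log2 difference was 2.18. Among the receptors, *Notch3*, the form of vascular smooth muscle, had values of 420 and 536 in GFP-only and of 51.6 and 48.6 in Pdgfrα-only cells, and *Notch1* 273 and 272 against 56.6 and 61.9. *Notch2* was level, at 417 and 472 against 457 and 436, and the populations overlapped. The ligand *Dll1* had 30.2 and 34.6 against 0.378 and 0.446, whereas *Jag1* had 65.2 and 90.9 against 65.7 and 51.8 and was not called (limma, adjusted p = 0.247). Target genes of the pathway were higher too, with *Heyl* at 295 and 364 against 20.5 and 18.3 and *Hey1* at 72.2 and 75.5 against 11.5 and 8.76.

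Cell cycle genes formed a further group. Of 22 measured, 20 were called higher in GFP-only cells and none lower, although by smaller steps, with a median log2 difference of 1.66. *Mki67*, the antigen Ki-67 of cycling cells (ENSMUSG00000031004, chromosome 7, 142881471 to 142908062, minus strand), had values of 571 and 477 in GFP-only and of 130 and 106 in Pdgfrα-only cells. *Top2a* had 191 and 138 against 49.5 and 36.4, *Kif11*, a motor of the mitotic spindle, 92.4 and 65.2 against 24.1 and 13.5, and *Cenpa* 15.4 and 19.7 against 2.65 and 4.60. No library of one population reached into the other for these 4 genes, and the log2 difference of *Mki67* was 2.14 (standard error 0.15, limma, adjusted p = 8.42e-07). Both populations lay far below double-negative cells, where the list summed to 11255 and 12336 against 1509 and 1310 in GFP-only and 474 and 377 in Pdgfrα-only libraries.

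Immediate early and stress genes were also higher, in 13 of 14 measured genes, with a median log2 difference of 2.1. *Egr1* had values of 3295 and 3811 in GFP-only and of 809 and 478 in Pdgfrα-only cells, *Fos* 465 and 505 against 103 and 73.8, and *Btg2* 265 and 308 against 35.7 and 38.5. The largest differences were those of the inducible heat shock proteins *Hspa1a*, at 453 and 729 against 16.8 and 36.7, and *Hspa1b*, at 258 and 466 against 13.2 and 24.2. *Hspa1a* and *Hspa1b* lie near each other on chromosome 17 and are nearly identical, so the split of reads between them is uncertain. The list summed to 6259 and 7774 in GFP-only libraries, 1607 and 1147 in Pdgfrα-only, 2624 and 2175 in double-positive and 755 and 973 in double-negative libraries. *Egr1* made up much of the sum in GFP-only cells, and not every member was highest there, as *Fosb* had 207 and 330 in GFP-only, 62.1 and 52.7 in Pdgfrα-only and 361 and 257 in double-positive libraries. Reads of the mitochondrial genome made up 24.2% and 22.2% of all reads in GFP-only and 14.4% and 14.5% in Pdgfrα-only libraries, and 36.9% and 39.1% in double-negative libraries, where the immediate early and stress list had its lowest sums. Of its 11 genes, 4 were called higher and none lower, among them the 12S ribosomal RNA *mt-Rnr1* at 41341 and 44194 against 23770 and 22822. Only 1 of them was called without GFP-only replicate 1 or without either Pdgfrα-only library, and after quantile normalization *mt-Rnr1* had a log2 difference of 0.00. The part of stress, RNA quality or handling in the other differences was not tested.

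Tendon genes were the counterpart of the muscle genes in Pdgfrα-only cells. Of 8 measured genes, 7 were called higher there and none in GFP-only cells, and the median log2 difference was -5.16. *Thbs4*, a thrombospondin of the tendon matrix (ENSMUSG00000021702, chromosome 13, 93521545 to 93564773, minus strand), had values of 7.41 and 6.30 in GFP-only and of 2265 and 2229 in Pdgfrα-only cells. Its log2 difference of -8.16 (standard error 0.14, limma, adjusted p = 9.19e-12) was the largest decrease in the table and came to a 328-fold ratio of means. The replicates agreed closely in each population.

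*Fmod* (fibromodulin), which shapes collagen fibrils, had values of 8.62 and 10.4 in GFP-only and of 1019 and 1168 in Pdgfrα-only cells, *Tnmd* (tenomodulin), a surface marker of tendon cells, 5.95 and 4.76 against 407 and 360, and *Kera* (keratocan) 0.364 and 0.129 against 113 and 99.0. The transcription factors of the lineage moved with them, *Mkx* at 0.607 and 1.41 against 42.0 and 39.1 and *Scx* at 3.04 and 3.22 against 7.94 and 10.8. The call on *Scx* ended without GFP-only replicate 1 (log2 difference -1.29) or 2 (-1.35) or without Pdgfrα-only replicate 2 (-1.12). Only *Tnc* (tenascin C), which many tissues make, overlapped, at 586 and 624 against 589 and 533, and was not called (limma, adjusted p = 0.648). Summed values of the list were 700 and 745 in GFP-only and 5452 and 5470 in Pdgfrα-only libraries. In GFP-only cells *Tnc* was the most abundant member per kilobase, at 80.6, and in Pdgfrα-only cells *Thbs4*, at 683.

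Matrix and surface genes of fibroblasts were called higher in Pdgfrα-only cells in 21 of 21 cases, with log2 differences between -7.24 and -1.19 and a median of -2.98. *Mfap5*, a protein of elastic microfibrils (ENSMUSG00000030116, chromosome 6, 122455863 to 122479308, plus strand), had values of 1.58 and 2.19 in GFP-only and of 447 and 418 in Pdgfrα-only cells. Sca1, a surface antigen of mesenchymal and blood stem cells, is the product of *Ly6a* (ENSMUSG00000075602, chromosome 15, 74825308 to 74828064, minus strand), which had 0.850 and 0.643 against 148 and 102. *Dcn* (decorin), a proteoglycan that binds collagen, had 39.9 and 28.4 against 1578 and 1375. These 3 genes did not overlap, and their log2 differences were -7.24, -6.15 and -5.41 (limma, adjusted p = 7.07e-09, 1.50e-07 and 4.40e-09).

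*Pi16*, which marks fibroblasts of the outer vessel sheath and fascia, had values of 0.850 and 0.129 against 39.0 and 26.9. *Clec3b* (tetranectin) had 0.364 and 0.386 against 23.1 and 21.8. The fibrillar and filamentous collagens were lower but not absent in GFP-only cells, as *Col3a1* had 1318 and 1168 against 11278 and 10779 and *Col6a3* 278 and 355 against 3493 and 3638. *Fn1* (fibronectin) had 496 and 525 against 4332 and 4112. Small differences were those of *Cd34*, at 90.9 and 99.9 against 236 and 203, and of *Thy1*, at 6.19 and 14.0 against 28.4 and 21.2. The call on *Thy1* ended without GFP-only replicate 1 (log2 difference -0.77) and without either Pdgfrα-only library (-1.10 and -1.5). The list summed to 4800 and 5078 in GFP-only and to 34948 and 33649 in Pdgfrα-only libraries, and *Col3a1* was its most abundant member per kilobase in both, at 148 and 1314.

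A further 7 of the 12 largest decreases were these. *Cilp*, a matrix protein of the middle layer of cartilage, had values of 1.09 and 2.19 in GFP-only and of 340 and 468 in Pdgfrα-only cells, and *Prg4* (lubricin), which lubricates joint and tendon surfaces, 1.82 and 4.24 against 361 and 736. *Egfl6* had 0.607 and 1.16 against 224 and 231, *Adam33*, a membrane protease of mesenchyme, 1.34 and 1.16 against 261 and 244, and *Penk*, the precursor of enkephalins, 1.82 and 1.67 against 267 and 292. *Itgbl1* stood at 1.09 and 0.129 against 116 and 123, and *Adamtsl3* at 0.607 and 2.96 against 170 and 208. Lack of overlap was a condition for entering this set. The ratios of means of these 7 genes lay between 106 and 258.

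Cartilage genes were higher in Pdgfrα-only cells in 11 of 17 cases, and none was called higher in GFP-only cells (median log2 difference -2.20). *Comp*, a matrix protein shared by cartilage and tendon, had values of 0.364 and 1.16 against 68.5 and 89.5, and *Acan* (aggrecan) 21.0 and 12.2 against 189 and 245. Several of these genes differed widely between the pools. *Col2a1*, the main collagen of cartilage, had 12 and 48.2 in GFP-only and 273 and 1498 in Pdgfrα-only cells, *Hapln1* 4.49 and 3.99 against 75.5 and 171, and *Col9a1* 0.121 and 3.22 against 14.0 and 72.0. In both populations the values of *Col2a1* and *Col9a1* were higher in replicate 2, yet the populations did not overlap. The master regulator *Sox9* was measured at 33.1 and 31.3 against 57.9 and 52.1 and was not called by limma (log2 difference -0.75, adjusted p = 0.0656), although its values did not overlap and voom and edgeR called it. The list summed to 388 and 417 in GFP-only and to 1697 and 3480 in Pdgfrα-only libraries, with *Col11a1* the most abundant member per kilobase in the former, at 18.6, and *Col2a1* in the latter, at a mean of 147. That rank of *Col2a1* rests on replicate 2. In Pdgfrα-only replicate 1 *Col11a1*, with a value of 854, stood above it per kilobase as well.

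Bone genes were split between the populations. Of 16 measured identifiers 7 were called higher in GFP-only cells and 5 lower, with a median log2 difference of 0.37. The collagens of bone, which fibroblasts and tendon also make, were lower in GFP-only cells, *Col1a1* at 3099 and 2562 against 16841 and 15352 and *Col1a2* at 2310 and 1922 against 11797 and 11016. *Runx2*, the transcription factor that starts bone formation, had 31.0 and 29.2 against 73.5 and 69.1, and the parathyroid hormone receptor *Pth1r* 5.71 and 5.53 against 15.0 and 16.2. For *Runx2* a second identifier shares its exons on the same strand, so its level is uncertain. Several genes of mineralizing cells went the other way. *Dmp1* of osteocytes had 45.5 and 33.3 against 3.40 and 6.98, *Ibsp* (bone sialoprotein) 152 and 135 against 61.6 and 38.2, *Spp1* (osteopontin) 494 and 393 against 287 and 174, and *Bglap* (osteocalcin) 4.49 and 3.99 against 1.89 and 1.04. These genes were far higher still in double-positive cells, where *Ibsp* had 2466 and 1774 and *Spp1* 6048 and 3915. *Sost*, also of osteocytes, was not called, at 1.58 and 1.16 against 0.630 and 0.149 (limma, adjusted p = 0.159). The call on *Spp1* ended without GFP-only replicate 1 (log2 difference 0.81) or Pdgfrα-only replicate 2 (0.62), and that on *Bglap* without any one of the 4 libraries (0.86 to 1.36). Members called higher then numbered 4 without GFP-only replicate 1 and 4 without Pdgfrα-only replicate 2.

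**Figure D3:**
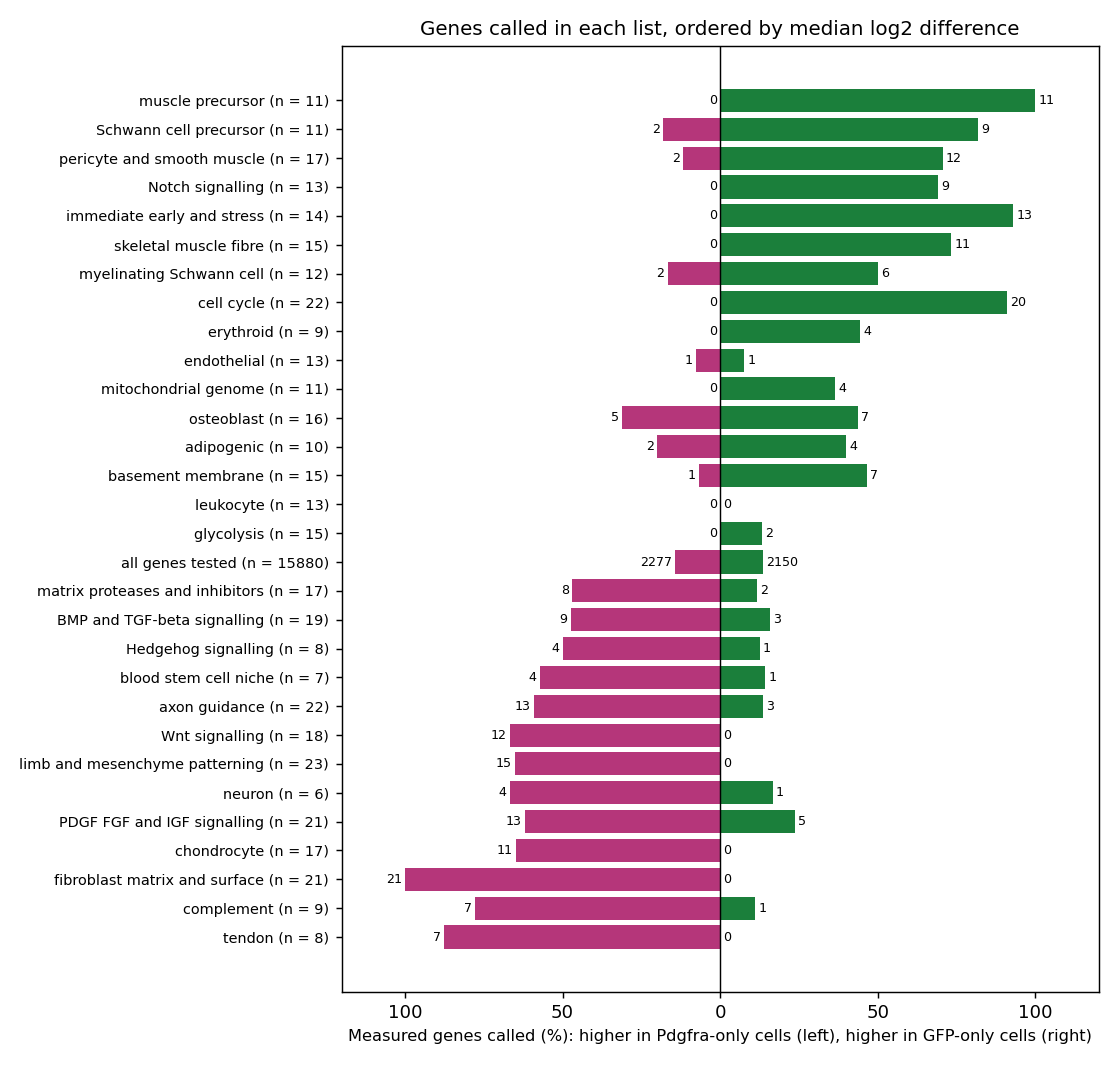
Share of the measured genes of each list (percent) that were called higher in Pdgfrα-only cells, to the left, or in GFP-only cells, to the right, with the number called beside each bar. Lists are ordered by their median log2 difference, from muscle precursor genes (11 of 11 higher in GFP-only cells) to tendon genes (7 of 8 higher in Pdgfrα-only cells), and all genes tested are shown for reference.

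Genes by which stromal cells keep blood stem cells in the marrow were mostly higher in Pdgfrα-only cells, in 4 of 7 cases, while 1 was higher in GFP-only cells (median log2 difference -1.16). *Lepr*, the leptin receptor of marrow stroma (ENSMUSG00000057722, chromosome 4, 101390009 to 101487957, plus strand), had values of 13.7 and 13.5 in GFP-only and of 101 and 102 in Pdgfrα-only cells. *Cxcl12*, the chemokine that retains blood stem cells (ENSMUSG00000061353, chromosome 6, 117118553 to 117131385, plus strand), had 62.0 and 73.4 against 170 and 136, and *Kitl* (stem cell factor) 7.16 and 11.7 against 24.6 and 28.1. No library overlapped for these 3 genes, whose log2 differences were -2.81, -1.16 and -1.42 (limma, adjusted p = 2.12e-05, 0.00251 and 0.00244). *Csf1*, the growth factor of macrophages, had 28.5 and 23.3 against 137 and 108. Of the 7, *Vcam1* alone ran against the others. This adhesion molecule that holds blood cells (ENSMUSG00000027962, chromosome 3, 115812938 to 115832606, minus strand) had 93.8 and 109 against 29.4 and 25.1. *Angpt1*, a ligand of endothelial cells, was not called at 10.6 and 11.4 against 16.8 and 12.6 (limma, adjusted p = 0.462). Double-positive cells held more *Lepr* (201 and 158), *Cxcl12* (709 and 631) and *Kitl* (55.9 and 67.1) than either single-positive population. *Csf1* had 113 and 82.9 there and overlapped Pdgfrα-only cells. The list summed to 216 and 243 in GFP-only, 479 and 415 in Pdgfrα-only and 1271 and 1076 in double-positive libraries.

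Among other genes that the study names, *Alcam* (CD166) was higher in GFP-only cells, at 51.8 and 54.2 against 7.44 and 10.2, and *Eng* (CD105) in Pdgfrα-only cells, at 24.4 and 23.3 against 63.7 and 58.4. The cadherin of mesenchyme *Cdh11* had 42.1 and 56.2 against 308 and 275, whereas N-cadherin, *Cdh2*, had 46.0 and 52.9 against 51.6 and 42.6 and overlapped. Genes of fat cells and their precursors were mixed, with 4 of 10 called higher in GFP-only cells and 2 lower (median log2 difference 0.36). *Zfp423*, a transcription factor of preadipocytes, had 7.65 and 8.10 against 119 and 114 and *Lpl* (lipoprotein lipase) 77.1 and 68.6 against 310 and 407, whereas *Fabp4* had 31.4 and 26.9 against 3.91 and 8.46 and *Cd36* 44.6 and 62.9 against 14.0 and 15.0. *Pparg*, the regulator of fat cell formation, overlapped at 8.38 and 3.22 against 5.93 and 8.17. Of the 4 higher members 2 were called without GFP-only replicate 1 and 2 without Pdgfrα-only replicate 2, and DESeq2 called 2.

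Of 15 basement membrane genes, 7 were called higher in GFP-only cells and 1 lower (median log2 difference 0.36). The laminin chain *Lama5* stood apart, at 143 and 166 in GFP-only against 9.20 and 5.79 in Pdgfrα-only cells, and so did the integrin chain *Itgb4*, at 27.6 and 15.3 against 0.378 and 1.04. *Nid1* (nidogen) was lower, at 597 and 718 against 2745 and 2871. *Hspg2* (perlecan) had 1269 and 1515 against 1695 and 1763 and was not called (limma, adjusted p = 0.323). The count of higher members came to 4 without GFP-only replicate 2, and that of lower members to 3 with voom and 2 with edgeR or DESeq2.

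In the Wnt list 12 of 18 genes were called higher in Pdgfrα-only cells and none in GFP-only cells, and the median log2 difference was -1.37. The secreted inhibitor *Dkk2* had 0.364 and 0.643 against 80.8 and 56.0, and its relative *Dkk3* 14.7 and 17.1 against 349 and 303. *Sfrp1*, which binds Wnt proteins, had 38.0 and 31.0 against 357 and 412. The ligand *Wnt5a* had 9.83 and 13.8 against 130 and 107. The receptor *Fzd4*, in contrast, overlapped at 144 and 169 against 127 and 155.

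Among growth factors of the PDGF, FGF and IGF families and their binding partners, 13 of 21 genes were called higher in Pdgfrα-only cells and 5 in GFP-only cells (median log2 difference -1.71). *Igf1* had values of 199 and 134 in GFP-only and of 1826 and 1782 in Pdgfrα-only cells, and *Igf2* 4104 and 4091 against 13853 and 12997. Their binding protein *Igfbp6* had 0.121 and 0.386 against 50.8 and 40.5, and *Igfbp5* 632 and 770 against 4513 and 3549. *Fgf18*, a growth factor of bone and cartilage, had 1.82 and 0.900 against 66.4 and 87.8. The 4 PDGF ligands were divided. *Pdgfa*, a ligand of Pdgfrα, had 111 and 143 in GFP-only against 26.3 and 36.4 in Pdgfrα-only cells and *Pdgfc* 53.3 and 66.5 against 20.5 and 18.6. *Pdgfb*, which recruits pericytes, was low, at 3.52 and 5.53 against 0.630 and 0.149, and DESeq2 did not call it. *Pdgfd* was higher in Pdgfrα-only cells, at 1.09 and 2.70 against 13.7 and 10.2.

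In the BMP and TGF-β list 9 of 19 genes were called higher in Pdgfrα-only and 3 in GFP-only cells (median log2 difference -0.82). *Tgfbi*, a matrix protein induced by TGF-β, had values of 12.5 and 13.5 against 365 and 346, *Inhba*, the activin A subunit, 4.73 and 1.67 against 49.3 and 42.0, and the BMP antagonist *Grem1* 0.607 and 0.900 against 16.3 and 18.6. On the GFP-only side were *Bmp6*, at 61.1 and 62.4 against 10.7 and 21.2, and the BMP target *Id1*, at 31.2 and 30.5 against 6.43 and 4.60. *Bmp4* overlapped, at 82.9 and 75.2 against 78.5 and 71.4.

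Of 8 measured Hedgehog genes, 4 were called higher in Pdgfrα-only cells and 1, the ligand *Dhh*, in GFP-only cells, with a median log2 difference of -0.93. *Hhip*, which binds the ligands, had 5.22 and 6.30 against 51.1 and 61.0. The transducer *Smo* had 77.3 and 90.7 against 178 and 169. *Ptch1*, the main receptor, had 142 and 122 against 157 and 158 and was not called. Axon guidance genes were called higher in Pdgfrα-only cells in 13 of 22 cases and in GFP-only cells in 3 (median log2 difference -1.20). *Slit3* had 24.6 and 24.8 against 167 and 146, while *Plxna2*, a semaphorin receptor, had 422 and 401 against 64.7 and 50 and *Ntn4*, a netrin of basement membranes, 66.2 and 74.5 against 8.45 and 8.76.

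Transcription factors that pattern the limb and its mesenchyme were higher in Pdgfrα-only cells in 15 of 23 cases and in GFP-only cells in none, and the median log2 difference was -1.64. *Tbx5*, the forelimb factor, had values of 2.06 and 1.41 in GFP-only and of 53.8 and 50.9 in Pdgfrα-only cells, and *Lmx1b*, which specifies the dorsal side of the limb, 0.607 and 0.129 against 9.96 and 15.0. *Prrx1*, expressed throughout limb mesenchyme, had 148 and 152 against 513 and 458, and *Twist1* 1.58 and 1.41 against 20.3 and 14.4. The Hox gene *Hoxc8*, at 18.1 and 17.6 against 19.3 and 19.2, was among the 8 members that were not called (limma, adjusted p = 0.864).

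Complement genes were higher in Pdgfrα-only cells in 7 of 9 cases and in GFP-only cells in 1 (median log2 difference -3.06). *C4b* had 2.79 and 4.24 against 129 and 88.7 and *C3* 12 and 1.67 against 85.3 and 46.2, and the regulator *Cd55* 8.13 and 5.53 against 126 and 125. The call on *C3* ended without GFP-only replicate 2 (log2 difference -2.29) or Pdgfrα-only replicate 1 (-3.00), and no complement gene was called higher in GFP-only cells without their replicate 1 or without either Pdgfrα-only library. Reads of *C4b* cannot be separated with certainty from those of its close paralog. Matrix proteases and their inhibitors were called higher there in 8 of 17 cases and in GFP-only cells in 2 (median log2 difference -0.33), with *Mmp2* at 111 and 130 against 674 and 665, *Mmp14*, which activates it, at 85.1 and 116 against 531 and 512, and the inhibitor *Timp2* at 277 and 295 against 1055 and 877. Of the 2 proteases or inhibitors higher in GFP-only cells, 1 was called without their replicate 2 or without either Pdgfrα-only library. Glycolytic genes served as a reference of housekeeping metabolism, and 2 of 15 were called higher in GFP-only cells and none lower (median log2 difference 0.05). The called ones were *Gapdh*, at 103 and 99.4 against 40.2 and 44.7, and *Pgk1*, at 58.6 and 60.8 against 41.7 and 41.1, and the call on *Pgk1* ended without any one of the 4 libraries (log2 differences from 0.49 to 0.54).

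Markers of the cells that the sort removed were low in both populations. Of 13 endothelial genes 1 was called higher in GFP-only cells (*Esam*, at 6.68 and 11.2 against 0.882 and 1.04) and 1 lower (*Erg*, at 0.364 and 4.50 against 24.6 and 40.8), and the list summed to 82.9 and 157 against 98.0 and 119. *Pecam1*, which encodes CD31, had 4.25 and 18.1 against 3.91 and 4.01, with GFP-only replicate 2 the highest, and it was not called (log2 difference 1.02) except without GFP-only replicate 1 (1.95). The call on *Erg* ended without GFP-only replicate 1 (-2.57) or Pdgfrα-only replicate 2 (-3.22). *Tek* was the most abundant endothelial gene per kilobase in GFP-only cells, at 7.09, and *Erg*, which cartilage cells also express, in Pdgfrα-only cells, at 9.40.

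Of 9 erythroid genes 4 were called higher in GFP-only cells and none lower (median log2 difference 0.64). *Hbb-b1* had 51.4 and 32.0 against 19.0 and 12.9, compared with 4362 and 7619 in double-negative cells, and it was the most abundant erythroid gene per kilobase in both populations. The summed values were 166 and 85.5 in GFP-only and 57.1 and 39.9 in Pdgfrα-only libraries, and the near-identical globin copies make the share of each one uncertain. Without GFP-only replicate 1 only 1 erythroid gene was called and *Hbb-b1* was not (log2 difference 0.98), and without Pdgfrα-only replicate 2 the count was 2, again without *Hbb-b1* (1.05). Voom on the recovered reads likewise called 1. None of 13 leukocyte genes was called by limma, with 1 at an unadjusted p of at most 0.05, while edgeR called 1 higher in GFP-only cells and voom and DESeq2 called 0. Limma called 1 of them higher without Pdgfrα-only replicate 1. They summed to 35.8 and 34.1 against 31.6 and 18.9, with *S100a9* the most abundant per kilobase in GFP-only cells, at 10.3, and *Lyz2* in Pdgfrα-only cells, at 8.27. *Ptprc*, which encodes CD45, had 1.34 and 0.900 in GFP-only cells and no read in Pdgfrα-only cells. The part of these cell types, or of any muscle, tendon or glial cells in the sorted pools, in the other differences was not tested.

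Among sex-linked transcripts, *Xist*, the RNA that coats the inactive X chromosome of females, had values of 4.98 and 1051 in GFP-only and of 8.95 and 1380 in Pdgfrα-only cells, so that replicate 2 was the high one in both. The same held in double-positive libraries, at 2.90 and 868, and in double-negative libraries, at 11.3 and 1351. The Y-linked *Eif2s3y* was read in every library, at 60.3 and 51.3 against 44.8 and 37.3. None of the 5 sex-linked genes was called by limma, voom, edgeR or DESeq2, and 0 reached an unadjusted p of 0.05 in limma.

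Finally, 125 called genes were read in one population and at the floor in the other, which was defined as at most 3 reads in both libraries with a mean value of at least 10 on the other side. Of these, 67 genes (0.422% of those tested) were at the floor in Pdgfrα-only cells and 58 (0.365%) in GFP-only cells. The 6 with the highest means on the GFP-only side were *Pax7*, *Myf5*, *Myog*, *Tnnt2*, *Rbm24* and *Itga7*, each of them a muscle gene described above. On the Pdgfrα-only side they were *Ly6a*, *Pappa2*, *Kera*, *Cytl1*, *Zfp185* and *Dkk2*. *Pappa2*, a protease that frees IGF from its binding proteins, had values of 0.850 and 0.386 in GFP-only and of 119 and 94.9 in Pdgfrα-only cells. *Zfp185* had 0.121 and 0.900 against 66.2 and 87.2, and *Cytl1*, a secreted protein of cartilage, 0.121 and 0.900 against 40 and 115.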

How the data were processed

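The signal is the normalized expression value that the authors deposited. They trimmed reads with cutadapt, counted them on NCBIM37 genes with RSEM 1.17 and normalized them for voom and limma. Picard is also among the tools they list. Their stated filter of more than 2 reads per 1e6 in at least 2 samples was not met by 1645 of the 15880 genes. All genes were kept here.

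Values were compared as log2(value + 1) with limma's lmFit and eBayes (trend), with 1 coefficient per population over all 8 libraries (4 residual degrees of freedom), Benjamini–Hochberg adjustment over all genes and two-sided p-values. Every value (100% at a tolerance of 0.02 reads) turned back into whole reads, taken to be rounded RSEM estimates, and on these edgeR called 4182 genes, DESeq2 3412 and voom 4514 at an adjusted p of at most 0.05. The common biological coefficient of variation in edgeR was 0.188.

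Libraries of equal replicate number came from the same pooled littermates by the study's description, yet the deviations of GFP-only and Pdgfrα-only libraries from their population means correlated at only 0.053 across 15880 genes, which are not independent replicates. *Xist* did follow the replicate number, low in replicate 1 and high in replicate 2 of every population. The planned fit did not pair the libraries.

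Named genes were *Pdgfra*, *Nes* and those the study names for this experiment, the 12 largest called increases and decreases without overlap and with a mean of at least 20 (predicted genes left out), up to 4 called members of each list by size of difference and 2 by mean, and up to 6 floor genes per direction. Other named list members, among them *Myod1*, *Pax3*, *Pdgfrb*, *Sox9* and *Hoxc8*, were chosen after their values were seen. The populations and lists were chosen with earlier results of these data known, and some results are not reported here.

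Folds are ratios of mean values, or lower bounds against a floor of 3 reads per library where no read was seen, and are not given where the lower population held 1 to 3 reads in all. Positions and exon lengths came from GENCODE M1, which held 15849 of the 15880 identifiers. For 74 symbols more than 1 identifier was present. Strandedness is not stated, so reads of genes whose exons overlap another gene, such as *Ttn*, *Ryr1*, *Itga7*, *Notch3*, *Mcam*, *Prg4*, *Penk*, *Col1a1* and *Fn1*, cannot be assigned with certainty. Software was limma 3.58.1, DESeq2 1.42.0 and edgeR 4.0.16 under R 4.3.3, and matplotlib 3.10.9, scipy 1.17.1, pandas 2.3.3 and numpy 2.4.6 under Python 3.11.15.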

Additional observations from a re-analysis of the deposited data

How the results depend on the processing

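The comparison was repeated under 18 alternatives. The number of called genes lay between 3412 (DESeq2) and 4999 (library weights) under those that kept all libraries of both populations and the threshold of 0.05, and between 45.9% and 51.8% of the calls were higher in GFP-only cells. With the replicate number as a block, so that libraries were paired by pool, 4530 genes were called, of which 4345 were shared with the unpaired fit. Among the gene lists, DESeq2 called 1 lower member in place of 2 for Schwann cell precursors, myelinating Schwann cells and pericytes and smooth muscle, 1 higher in place of 2 for glycolysis and 0 higher in place of 1 for complement. The median of all genes lay between 0.00 (without GFP-only replicate 2) and 0.05 (quantile normalization).

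At an adjusted p of at most 0.01, 2805 genes were called, 1293 higher in GFP-only and 1512 in Pdgfrα-only cells, as a stricter threshold must give fewer. Leaving out 1 library at a time gave 2757 to 3077 called genes, with 1279 to 1497 higher in GFP-only cells, 1478 to 1657 higher in Pdgfrα-only cells and 2297 to 2536 that also differed by at least 1 on the log2 scale. There the lone library is assumed to vary like those of the other populations. Genes at the floor numbered 27 in Pdgfrα-only and 20 in GFP-only cells with at most 1 read per library, and 143 and 113 with a mean of at least 5 on the other side, which follows from the narrower and wider definitions.

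Of 178 named genes, 152 kept their direction and their side of the threshold under all alternatives that gave them a value. Over 3012 values, 59 lost a call, 9 gained one and 16 changed sign, and each change of sign belonged to a gene that was not called. Leaving out 1 library at a time gave log2 differences from -0.06 to 0.21 for *Cdh2* (-0.03 without GFP-only replicate 2), -0.22 to 0.62 for *Ckm*, -0.62 to 0.88 for *Lyz2* (-0.00 without GFP-only replicate 1) and -0.10 to 0.08 for *Notch2* (0.02 without Pdgfrα-only replicate 1). The same step gave -0.18 to 0.35 for *Pdgfrb*, -0.92 to 0.23 for *Pparg*, -0.01 to 0.51 for *Tek* and -4.29 to 3.17 for *Xist* (2.99 without Pdgfrα-only replicate 2). Quantile normalization gave 0.43 for *Hspg2* and 0.11 for *Notch2*, and edgeR and DESeq2 gave -0.08 and -0.08 for *Lyz2*. The cause was not tested.

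Each population had 2 libraries of pooled pups, so the spread between animals is unknown and every p-value leans on variance shared between genes. At 3221217 to 3869275 reads per library a gene with a value under 1 rests on 3 reads or fewer, and its difference is understated by the added 1 on the log scale. Sorted pools hold a mixture of cell types whose shares were not measured.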
